A study of Mus musculus with 6 samples.

Results

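The 9 genes described here encode secreted proteins named as bone morphogenetic proteins (BMPs) or growth and differentiation factors (GDFs): Bmp1, Bmp2, Bmp4, Bmp5, Bmp6, Bmp7, Gdf6, Gdf10 and Gdf11. They were chosen by symbol, and all 9 were found among the 17551 genes of the deposited HTSeq count table. RNA was sequenced from mouse neurospheres, spheres of neural stem and progenitor cells that grow in suspension in medium with the growth factors EGF and FGF. The strain background of both groups is C57BL/6. The genotype label is ACVR1 G328V for 3 libraries (G328V replicates 1, 2 and 3) and ACVR1 WT for the other 3 (WT replicates 1, 3 and 70A). Where 3 values are given for a group, they follow this order of replicates. The titles carry the codes NPAC for the first group and NPC for the second, and the series text writes NPAC and NP. The labels do not spell out these letters, so it is not known here which alleles other than ACVR1 the groups share or differ in, nor which animal or clone each culture came from. The series calls the replicates biological, and a p-value here reflects only how far these 6 samples spread.

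BMPs and GDFs are made as precursors, cleaved by proprotein convertases and released as dimers. A dimer brings together type I and type II receptor kinases at the cell surface, and the type I receptor phosphorylates SMAD1, SMAD5 or SMAD9 for the BMP branch, or SMAD2 and SMAD3 for the activin branch that GDF11 uses. ACVR1 is a type I receptor with a known part in signalling by BMP7 and its close relatives, and G328V is a glycine-to-valine change in its kinase domain. In the developing nervous system BMPs from the dorsal midline pattern dorsal progenitors, and in neural stem cell cultures they are known to favour astrocyte fates over proliferation. BMP1 carries the family name but is a metalloprotease of the tolloid group, which trims procollagens and cleaves the BMP antagonist chordin. Counts and medians over the 9 ligand genes below include it. The comparison asked which ligand RNAs differed between neurospheres labelled G328V and WT.

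Total counts ranged from 115953495 to 191115532 per library, so 3 counts, used here as the floor below which a gene is not told from absent, correspond to 0.0163 to 0.0249 CPM (counts scaled to library size after TMM normalisation). Floors and intervals on counts cover counting error only. They treat HTSeq counts as independent, though the median gene had 1.95 to 1.96 per Cufflinks fragment, so the intervals are too narrow. Acvr1, the gene named in the genotype, measured 244, 250 and 650 CPM (G328V) against 42.4, 100 and 90.7 CPM (WT). Its HTSeq counts per Cufflinks fragment were 1.13 to 1.21 under G328V but 1.94 under WT, so these levels do not compare like for like between the 2 groups. Of 8 listed neural stem and progenitor markers, 7 were detected in each library, among them Sox2, Nes and Vim. Hes5 had 0 counts in at least 1 library. Sox2 lay between 134 and 237 CPM, while Nes ran from 91.2 to 963 CPM. Fabp7 measured 1313 CPM in WT replicate 1 and between 0.182 and 65.1 CPM in the other libraries. The sex-linked gene Xist lay between 443 and 795 CPM in G328V and between 0.250 and 1.18 CPM in WT, and the Y-linked gene Ddx3y at 0 to 0.0326 CPM in G328V and 17.7 to 51.0 CPM in WT. Genotype and sex-linked expression cannot be told apart in the values that follow. WT replicate 1 stood apart through oligodendrocyte lineage markers (7 of 7 listed genes were in the table), whose summed level was 1047 CPM there, 52.0 and 106 CPM in WT replicates 3 and 70A, and between 14.5 and 304 CPM among G328V libraries. Olig2 made up 416 of the 1047 CPM, while Sox10 and Mbp each had 0 counts in at least 1 library. WT replicate 70A stood apart through fibroblast and mesenchyme markers (6 of 6 in the table), at 504 CPM, where WT replicates 1 and 3 had 6.10 and 19.9 CPM and G328V libraries between 1.11 and 105 CPM. Col3a1, a fibrillar collagen, made up 455 of those 504 CPM, while Col1a2, Dcn and Lum each had 0 counts in at least 1 library. Markers of the dorsal midline and roof plate, the embryonic source of BMPs (5 of 6 in the table), summed to 6.40 to 19.3 CPM in the G328V libraries and to 2.28 to 26.6 CPM in the WT libraries, most of it Msx1. Msx1 had 5.77 to 11.7 HTSeq counts per Cufflinks fragment, where the median gene had 1.95 to 1.96, so that sum is uncertain. Lmx1a, Wnt1, Wnt3a and Rspo1 each had 0 counts in at least 1 library.

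No ligand gene was called as different between the groups. By edgeR's quasi-likelihood test with Benjamini-Hochberg adjustment over 14643 genes, 0 of the 9 passed a false discovery rate of 0.05, as did 0.0% of all tested genes, and the adjusted p was 0.997 for each of the 9. The smallest edgeR adjusted p over all tested genes was 0.254, so 0 of 9 at that rate does not set the ligands apart. At an unadjusted p under 0.05 there were also 0 of 9, against 4.06% of all tested genes. DESeq2, run as an alternative, also called 0 of the 9, against 1.05% of the genes it gave an adjusted p. It left both the unadjusted and the adjusted p of Bmp4 as NA. Its unadjusted p was under 0.05 for 3 of the 9 (at least 0.0106 and at most 0.0255), Bmp2, Bmp6 and Gdf6, each lower in G328V. That share was 6.95% over all genes with such a p, and Bmp4, which had none, is counted in the 9. The newer edgeR fit had 1 of 9 under 0.05, Gdf6 (unadjusted p = 0.0124), against 6.11% of all tested genes, and its adjusted p was 0.773. The fitted log2 difference, G328V minus WT, was below 0 for 8 of the 9 members, as for 50.3% of all tested genes. Its median was -0.51 over the 9, which is the value of Bmp1, and -0.0039 over all tested genes. The median standard error was 2.13 over the 9 and 0.55 over all tested genes, so these libraries left most ligand differences poorly bounded. In these bulk cultures a lower value can come from fewer cells that make a ligand or from less of its RNA per cell, and the 2 cannot be told apart.

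**Figure D1:**
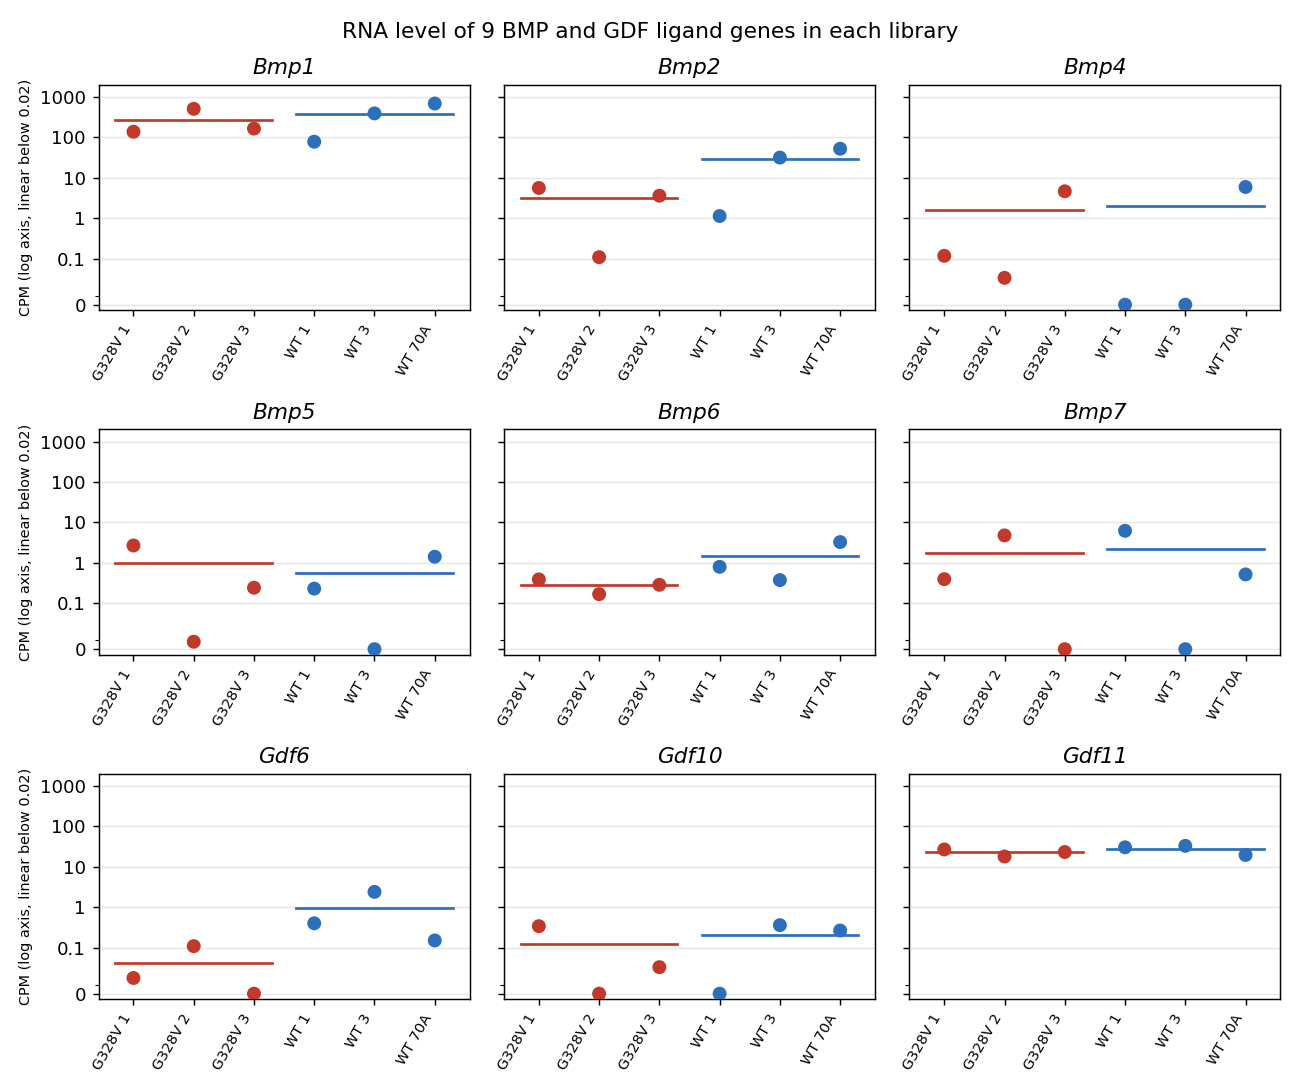
Level of each ligand gene (CPM, log axis that is linear below 0.02), with 1 point per library, G328V in red and WT in blue, and a line at each group mean. Gdf11 stays between 18.0 and 33.0 CPM, Bmp4 and Bmp7 have 1 library above 4 CPM and at least 1 at or near 0 in each group, and among the 9 genes only Gdf6 has its 3 WT points above its 3 G328V points.

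Levels between genes were compared per kilobase of exon (RPKM on the same scaled library sizes). Bmp1 was the most abundant, with a mean of 37.2 RPKM over the 6 libraries, and its lowest library, at 8.84 RPKM, lay above the highest Gdf11 library, at 8.13 RPKM. Gdf11 followed with a mean of 6.20 RPKM and Bmp2 with 4.43 RPKM, but these neighbours overlapped, as Bmp2 ran from 0.0304 to 14.8 RPKM. Bmp4, Bmp7, Bmp6, Bmp5 and Gdf6 came next, with means of 0.793, 0.489, 0.224, 0.188 and 0.145 RPKM, and Gdf10 was the lowest at 0.0318 RPKM. From Bmp4 down, each gene overlapped its neighbour over the libraries, so their order is not settled by these data.

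The main BMP differed between cultures of the same group. Among the 7 growth factor members other than Gdf11, Bmp2 held 91.4% and 78.6% of the summed RPKM in WT replicates 3 and 70A and 61.7% in G328V replicate 1. Bmp7 held 90.7% in G328V replicate 2 and 69.0% in WT replicate 1. Bmp4 held 64.1% in G328V replicate 3, where Bmp2 had a further 31.6%. The leading ligand therefore crossed the genotype labels: Bmp2 led in libraries of both groups, and so did Bmp7. The summed level of these 7 genes was 2.55, 1.30 and 3.21 RPKM in G328V replicates 1, 2 and 3, and 2.22, 9.75 and 18.8 RPKM in WT replicates 1, 3 and 70A. The groups overlapped in that sum, because WT replicate 1 lay below G328V replicates 1 and 3.

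**Figure D2:**
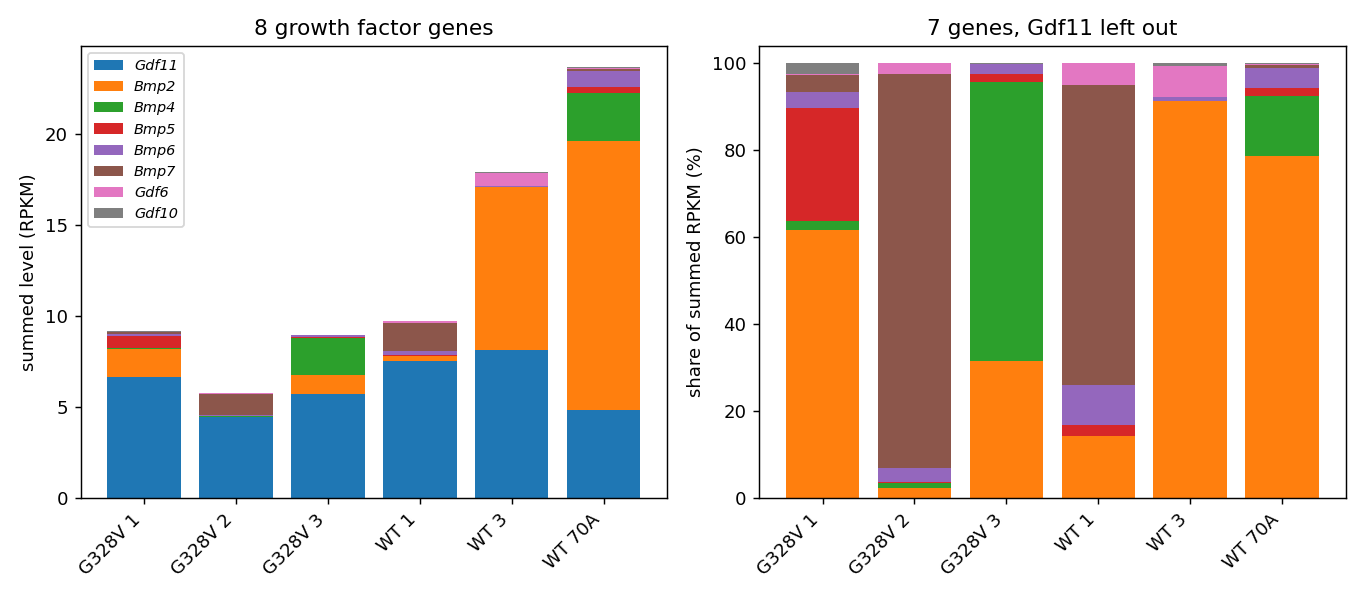
Left, stacked level in RPKM of the 8 growth factor genes (Bmp1, a protease, is left out) in each library. Right, the share of each of the 7 genes other than Gdf11 in their summed RPKM. Bmp2 leads in G328V replicate 1 and WT replicates 3 and 70A, Bmp7 in G328V replicate 2 and WT replicate 1, and Bmp4 in G328V replicate 3.

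Bmp2 and Bmp4 encode the closest pair of BMPs in sequence, ligands with high affinity for the receptors BMPR1A and BMPR1B. Bmp2 lies on chromosome 2 from 133552159 to 133562885 (GRCm38, plus strand). Its levels were 5.60, 0.108 and 3.60 CPM (G328V) against 1.13, 31.7 and 52.5 CPM (WT). The 2 highest libraries were WT, but WT replicate 1 lay below G328V replicates 1 and 3, so the groups overlapped. The log2 difference was -3.19 (standard error 1.67, 95% interval -7.25 to 0.86; edgeR unadjusted p = 0.103, adjusted p = 0.997). It stayed negative when any 1 library was left out, between -3.94 and -2.40. Inhba, which encodes the activin A subunit, had the same 2 high libraries, with 54.7 CPM in WT replicate 3 and 29.0 CPM in WT replicate 70A, and lay between 0.699 and 2.69 CPM in the other 4.

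Bmp4 lies on chromosome 14 from 46383520 to 46390669 (minus strand). Its RNA was above 4 CPM in 1 library of each group and at or under 0.117 CPM in the others. The counts were 20, 4 and 851 (G328V; 0.117, 0.0332 and 4.63 CPM) against 0, 0 and 1030 (WT; 0, 0 and 5.92 CPM). Against the 2 WT libraries at 0, the floor was 0.0244 and 0.0170 CPM. The log2 difference of -0.31 had a standard error of 2.99, and its 95% interval ran from -7.58 to 6.96. Its direction rested on single libraries: it was 0.24 and 0.27 without G328V replicates 1 and 2, -4.70 without G328V replicate 3, and 2.81 by limma-voom. Without WT replicate 70A the remaining WT libraries hold 0 counts, so the fitted 10.95 is not a measured size. In the annotation 89 bases of Bmp4 exon overlap Gm15217 on the other strand, and the use of strand in the authors' counting is not known here.

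Bmp5, Bmp6 and Bmp7 form the subgroup whose ligands are known to signal through ACVR1. Bmp7 lies on chromosome 2 from 172868012 to 172940321 (minus strand) and measured 0.390, 4.73 and 0 CPM (G328V) against 6.16, 0 and 0.511 CPM (WT). Each group thus held 1 high library, 1 intermediate library and 1 with 0 counts. The log2 difference was -0.38 (standard error 2.75, 95% interval -7.07 to 6.31). It was 2.69 without WT replicate 1, the library with the high oligodendrocyte lineage markers, -3.51 without G328V replicate 2, and 0.091 and 0.21 without G328V replicates 1 and 3. The summed oligodendrocyte lineage markers were 304, 201 and 14.5 CPM (G328V) against 1047, 52.0 and 106 CPM (WT), so the 2 libraries with 0 counts of Bmp7 had the 2 lowest sums. Olig2, from that list, measured 0.938, 0.208 and 0.114 CPM (G328V) against 416, 0.0170 and 0.144 CPM (WT). It was thus low in G328V replicate 2, where Bmp7 measured 4.73 CPM. The part of those marker levels in the Bmp7 value was not tested.

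Bmp5 lies on chromosome 9 from 75775364 to 75900310 (plus strand). Its levels were 2.66, 0.00831 and 0.239 CPM (G328V) against 0.228, 0 and 1.40 CPM (WT). The lowest library of each group was under the floor, with 1 count in G328V replicate 2 and 0 in WT replicate 3. Bmp5 was the 1 member with a positive difference, 0.84 with a standard error of 2.41 (95% interval -5.01 to 6.68), and this turned to -2.12 without G328V replicate 1 and grew to 3.10 without WT replicate 70A. The antisense gene Gm26903 shares 1878 exon bases with it, so without strand information its low counts are uncertain.

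Bmp6 lies on chromosome 13 from 38345107 to 38500302 (plus strand) and was detected in each of the 6 libraries. It measured 0.385, 0.166 and 0.283 CPM (G328V) against 0.788, 0.369 and 3.24 CPM (WT). The groups overlapped by a narrow margin, as WT replicate 3 lay below G328V replicate 1 and the counting intervals of those libraries, 0.285 to 0.471 and 0.297 to 0.489 CPM, covered the same range. The log2 difference was -2.40 (standard error 1.21, 95% interval -5.32 to 0.53; edgeR unadjusted p = 0.0928, adjusted p = 0.997), and it was -1.06 without WT replicate 70A. An exon stretch of 224 bases overlaps Txndc5 on the other strand, a gene at 146 to 280 CPM in these libraries. For Bmp6 the HTSeq count was 1.11 to 2.24 times the Cufflinks fragment number, against a median of 1.95 to 1.96 over the 8924 genes whose count was 500 or more in every library. The part of overlapping reads in its low values was not tested.

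Gdf6 encodes a ligand of the GDF5, GDF6 and GDF7 subgroup, known from skeletal joints and the dorsal neural tube. It lies on chromosome 4 from 9844372 to 9862345 (plus strand). The counts were 3, 13 and 0 (G328V; 0.0175, 0.108 and 0 CPM) against 49, 421 and 26 (WT; 0.398, 2.39 and 0.149 CPM). Each WT library lay above each G328V library, the only one of the 9 members with groups that did not overlap. That pattern, with G328V lower, was found in 4.45% of all tested genes, and groups that did not overlap in either direction in 9.7%, so 1 of 9 is not far from the background. The gap was small, since the counting intervals of G328V replicate 2 and WT replicate 70A, 0.0575 to 0.185 and 0.0976 to 0.219 CPM, overlapped. The log2 difference was -4.55 (standard error 2.13, 95% interval -9.70 to 0.61; edgeR unadjusted p = 0.0748, adjusted p = 0.997). It remained negative without any 1 library, from -6.70 to -2.73, the value closest to 0 being that without WT replicate 3. DESeq2 gave an adjusted p of 0.320 with the 6 libraries and 0.0281 without G328V replicate 2, and without any other single library it was at least 0.249. Gdf5, of the same subgroup, had 50 counts in G328V replicate 1, 20 in G328V replicate 2 and 0 in the other 4 libraries, and Gdf7 is listed at 0 in each library of the Cufflinks table.

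Gdf10, also called BMP3B, is a relative of BMP3 and the rarest member. It lies on chromosome 14 from 33923587 to 33937983 (plus strand). The counts were 58, 0 and 6 (G328V) against 0, 63 and 46 (WT), at most 0.358 CPM. Each group held at least 1 library at 0, and the log2 difference of -0.74 had a standard error of 2.29. Without G328V replicate 1 it was -3.57. Bmp3, its paralog, had 135 counts in WT replicate 70A, 6 in G328V replicate 1 and 0 elsewhere.

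Gdf11, a ligand of the activin branch that restrains neurogenesis in several neural tissues, was the steadiest member. It lies on chromosome 10 from 128882295 to 128891718 (minus strand). Its levels were 26.9, 18.0 and 23.2 CPM (G328V) against 30.4, 33.0 and 19.6 CPM (WT). The highest library was 1.84 times the lowest, and the groups overlapped. The G328V mean was 22.7 ± 4.46 CPM (SD, n = 3) and the WT mean 27.7 ± 7.10 CPM (SD, n = 3). The log2 difference of -0.29 had a standard error of 0.33, the smallest of the 9, and its 95% interval of -1.09 to 0.51 includes differences in both directions. Leaving out 1 library gave -0.49 to -0.15. Mstn, the closest paralog of Gdf11, is listed at 0 in each library of the Cufflinks table.

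Bmp1 lies on chromosome 14 from 70474558 to 70520234 (minus strand). It measured 138, 512 and 166 CPM (G328V) against 78.4, 395 and 692 CPM (WT). The lowest and the highest library were both WT, so G328V lay within the WT range. The log2 difference was -0.51 (standard error 0.86, 95% interval -2.59 to 1.57). It turned to 0.18 without WT replicate 70A, the library with the high Col3a1, and was -1.35 without G328V replicate 2. The part of the mesenchyme markers in the Bmp1 level was not tested. These levels rest on 9647 to 120538 counts per library.

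**Figure D3:**
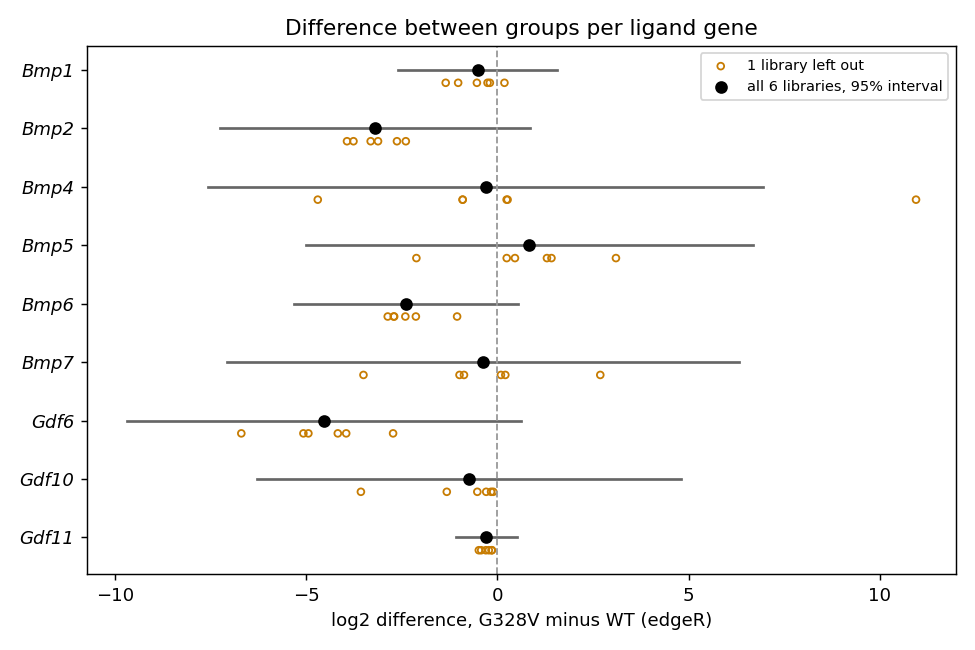
Log2 difference between the groups (G328V minus WT) for each ligand gene: the black point and line give the edgeR estimate and its 95% interval over 6 libraries, and each open circle the estimate with 1 library left out. The 9 intervals include 0, that of Gdf11 is the narrowest, and the circles of Bmp1, Bmp4, Bmp5 and Bmp7 fall on both sides of 0.

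The members differed in how much they varied inside a group. The pooled within-group SD of log2 CPM was 0.35 for Gdf11, 1.36 for Bmp1, 3.02 for Bmp2, 4.39 for Bmp4 and 4.40 for Bmp7. Rare genes vary more on this scale, so the tested genes were split into 10 equal classes by mean CPM, and each member was set beside its own class. Bmp1 and Bmp2 lay above the medians of their classes, 0.42 and 0.59, and below the 95th percentiles, 1.61 and 3.48. Bmp4 and Bmp7 lay above both the median, 2.10, and the 95th percentile, 4.03, of theirs. Gdf11 lay below its median of 0.49, and Bmp6 and Gdf6, at 1.18 and 1.82, below theirs of 2.10. Bmp5 and Gdf10, at 3.47 and 2.56, lay above their medians of 2.10 and 1.99 and within the 95th percentiles.

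**Figure D4:**
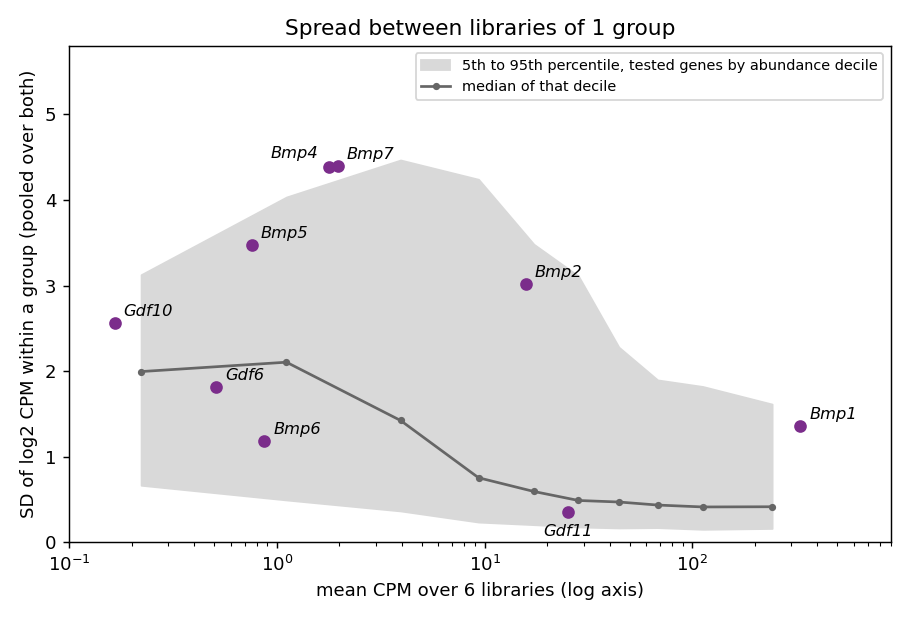
Spread between libraries of 1 group (SD of log2 CPM, pooled over both groups) against the mean CPM over 6 libraries (log axis), with ligand genes as points and the median and 5th to 95th percentile of tested genes in each of 10 abundance classes in grey. Bmp4 and Bmp7 lie above the grey band and Gdf11 below the median line.

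Promoter sequences were looked up for the members and found for 5 of the 9 (Bmp4, Bmp5, Bmp6, Gdf10 and Gdf11) in RefSeq (GRCm38.p6). The 250 bases before the start of 3 of them are printed because these genes span the patterns above: Gdf11 is steady in each library, Bmp4 is high in 1 library of each group, and Bmp5 ranges from 0 to 2.66 CPM. They are written 5′ to 3′ on the gene's strand, from chr10:128891719-128891968 (minus) for Gdf11, chr14:46390670-46390919 (minus) for Bmp4 and chr9:75775115-75775364 (plus) for Bmp5. Capitals mark GC boxes, GGGCGG on either strand.
Gdf11: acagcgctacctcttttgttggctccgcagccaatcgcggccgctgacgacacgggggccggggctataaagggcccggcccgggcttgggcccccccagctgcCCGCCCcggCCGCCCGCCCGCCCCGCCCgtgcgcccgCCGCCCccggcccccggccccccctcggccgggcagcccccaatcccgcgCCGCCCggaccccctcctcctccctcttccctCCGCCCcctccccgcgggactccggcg
Bmp4: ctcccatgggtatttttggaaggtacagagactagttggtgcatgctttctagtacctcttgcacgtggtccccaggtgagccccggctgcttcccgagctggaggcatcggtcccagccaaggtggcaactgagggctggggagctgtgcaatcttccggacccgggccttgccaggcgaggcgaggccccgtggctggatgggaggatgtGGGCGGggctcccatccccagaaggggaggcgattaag
Bmp5: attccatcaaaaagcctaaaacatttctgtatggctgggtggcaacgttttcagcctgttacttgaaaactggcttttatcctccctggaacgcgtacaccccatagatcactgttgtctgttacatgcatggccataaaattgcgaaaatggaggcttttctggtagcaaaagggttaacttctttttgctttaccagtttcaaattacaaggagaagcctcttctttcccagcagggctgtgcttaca
The stretch before Gdf11 was 81.2% G or C with 33 CG pairs and 8 GC boxes, several of which overlap each other. That before Bmp4 was 63.2% G or C with 11 CG pairs and 1 GC box, and that before Bmp5 was 42.8% G or C with 4 CG pairs and 0 GC boxes. The medians over all 32851 promoters of the same length were 52.4% and 6 CG pairs, and 32.7% of them hold a GC box on either strand. The stretch before Gdf10, the rarest member, was 78.8% G or C with 35 CG pairs, and that before Bmp6 was 68.8% with 22. Any link between these letters and the level or spread of a gene was not tested. The letters GGCGCC, the core of the GC-rich element that SMAD1 and SMAD5 bind, occur in 9.59% of all promoters and in 0 of the 5 members' windows. The E-box CACGTG occurs in 6.02% of all promoters and 1 time each in the windows of Bmp4 and Bmp6. The Bmp6 window, from 38345466 to 38345715, lies inside the extent given above for that gene. These matches describe letters in a short window and not binding.

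For the 5 members with a mean of at least 1 CPM, the most similar profiles were taken over the 6 libraries among 9386 genes with a mean of at least 10 CPM, by Pearson's r of log2 CPM, as a description that shares libraries and scaling. Bmp2 was closest to Scarf2 (r = 0.979), which encodes a scavenger receptor and measured 25.3 CPM in WT replicate 3, 63.6 CPM in WT replicate 70A and 0.0166 CPM in G328V replicate 2. Bmp7 was closest to Kif3a, Nin and Pcdhb16 (r = 0.992, 0.989 and 0.987). Pcdhb16, a clustered protocadherin, had the same high libraries, with 25.3 CPM in G328V replicate 2 and 33.0 CPM in WT replicate 1, and it was at 0 in the same libraries as Bmp7. Bmp4 was closest to Coq2 (r = 0.982), Gdf11 to Xk (r = 0.988) and Bmp1 to Rock2 (r = 0.997). Each of these is among the 3 highest r of its member out of 9386 over 6 points, and no chance level was computed for it. Pearson's r does not compare the size of a change. Rock2 ran from 124 to 209 CPM where Bmp1 ran from 78.4 to 692 CPM. Coq2 ran from 15.2 to 34.5 CPM where Bmp4 ran from 0 to 5.92 CPM. Between members, Bmp2 and Gdf10 had the highest r, 0.866, and Bmp4 and Gdf6 the lowest, -0.65.

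Beside the 9 members, 17 of 25 other ligands of the family (further BMPs and GDFs, activin and inhibin subunits, TGF-betas, nodal-type ligands and AMH) were in the count table and 13 were tested. By edgeR 0 passed in either direction, with 1 at an unadjusted p under 0.05, and their median log2 difference was -0.18. That 1 was Inhba, with a difference of -3.98, a standard error of 1.39 and an unadjusted edgeR p of 0.0276 (adjusted p = 0.997), and its groups overlapped. Gdf15, a stress-induced family member, measured 22.1, 19.9 and 1.27 CPM (G328V) against 0.366, 53.5 and 0.350 CPM (WT), another ligand with high and low libraries in both groups. Tgfb3 was the steadier of the TGF-betas, with a G328V mean of 69.5 ± 9.61 CPM (SD, n = 3) and a WT mean of 44.1 ± 26.7 CPM (SD, n = 3). Tgfb1 and Tgfb2 had standard errors of 1.29 and 1.06 on differences of 0.82 and -0.80. Inhbb, the activin B subunit, ran from 0.00544 to 42.2 CPM within G328V alone. Lefty1, a nodal inhibitor, reached 10.6 CPM in WT replicate 3 and stayed at or under 0.441 CPM elsewhere. Inha, the inhibin subunit, was at most 1.62 CPM. Amh was low in each library, at 0.027 to 0.093 CPM in G328V and 0.199 to 0.471 CPM in WT, and was the 1 of these 13 with groups that did not overlap (4.45% of all tested genes, with G328V lower).

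The receptors and processing enzymes for these ligands gave 0 calls by edgeR as well. Of 7 BMP receptors, 1 had an unadjusted edgeR p under 0.05 (4.06% of all tested genes), Acvr1 itself. For 2, Acvr1 and the type II receptor Acvr2b, every G328V library lay above every WT library, where 5.25% of all tested genes did so. The Acvr1 levels do not compare like for like between the groups, as stated above. Acvr2b, which also binds GDF11, had a G328V mean of 7.31 ± 1.72 CPM (SD, n = 3) and a WT mean of 3.18 ± 1.51 CPM (SD, n = 3). The 7 receptors had a median difference of 0.17, as did the 5 tested co-receptors. Among co-receptors Bambi, a decoy receptor that BMP signalling induces, measured 23.8, 69.4 and 73.6 CPM (G328V) against 11.3, 8.09 and 14.2 CPM (WT), with a log2 difference of 2.31 and a standard error of 0.51. DESeq2 called Acvr1 and Bambi as higher (adjusted p = 0.0291 and 0.0123), against 1.05% of genes over both directions, and edgeR neither (adjusted p = 0.997). Of the 5 receptors of GDF11 and activins, Acvr1c had the 1 unadjusted edgeR p under 0.05 (4.06% of all tested genes). It measured 0.367, 0.299 and 0.109 CPM (G328V) against 0, 0 and 0.00574 CPM (WT). The value in G328V replicate 3 rests on 20 HTSeq counts but 4 Cufflinks fragments, where the median gene had 1.96 counts per fragment, so it is uncertain. The 4 convertases had a median difference of -0.039. The convertases Pcsk5, Pcsk6 and Pcsk7 overlapped between the groups, with Pcsk6 at 47.3, 15.4 and 175 CPM (G328V) against 12.2, 38.8 and 22.9 CPM (WT).

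Secreted antagonists, which bind BMPs outside the cell, had positive differences in 12 of 14 tested genes, with a median of 1.02, where 50.3% of all tested genes had negative ones. By edgeR 0 of them passed and 2 had an unadjusted p under 0.05 (4.06% of all tested genes), and DESeq2 called 1, Sost, as higher (1.05% of genes over both directions). Sost, listed here among the antagonists but better known as an inhibitor of Wnt signalling, measured 1.05, 0.382 and 0.250 CPM (G328V). It had 0 counts in each WT library. Nog, which encodes noggin, measured 4.97, 13.9 and 1.10 CPM (G328V) against 0.203, 0.335 and 0 CPM (WT). Bmper had a G328V mean of 16.3 ± 8.69 CPM (SD, n = 3) and a WT mean of 4.09 ± 3.43 CPM (SD, n = 3), with overlapping groups.

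BMP-SMAD target genes had positive differences in 16 of 18 tested members, with a median of 2.61, and in 10 of them every G328V library lay above every WT library, beside 0 of 9 ligands and 5.25% of all tested genes with that pattern. By edgeR 0 of the 18 passed and 10 had an unadjusted p under 0.05 (4.06% of all tested genes), and DESeq2 called 5, each higher (1.05% of genes over both directions). Smad9 had the smallest edgeR p of the list, with a G328V mean of 24.2 ± 5.16 CPM (SD, n = 3) and a WT mean of 0.245 ± 0.286 CPM (SD, n = 3). Of 8 SMADs and Smurfs of the branch, edgeR called 0, and the median difference was 0.13. The 2 with an unadjusted edgeR p under 0.05 (4.06% of all tested genes) were Smad6 and Smad9. DESeq2 called both higher (adjusted p = 0.00197 and 5.05e-08, against 1.05% of genes over both directions). Smad6, Smad7 and Smad9 are also in the target list, and its Bambi, Nog and Grem1 are in lists above, so these are not separate results. The target list was chosen with its results known, so its count describes these libraries only. The difference between the ligand and target lists was not tested.

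BMP1-type proteases, their enhancers and substrates had a median difference of -0.16 over 15 tested genes, 7 positive and 8 negative, and 0 passed by edgeR, with 2 at an unadjusted p under 0.05 (4.06% of all tested genes). Lox, the collagen cross-linking enzyme that BMP1 activates, had 0 counts in each G328V library and measured 1.35, 0.068 and 0.115 CPM (WT). DESeq2 called it lower (adjusted p = 0.0461), the 1 call it made in the list against 1.05% of all genes, and edgeR did not (adjusted p = 0.997). Col7a1, an anchoring collagen that BMP1 processes, measured 25.6 CPM in WT replicate 3, 69.7 CPM in WT replicate 70A and 0.859 to 4.08 CPM in the other 4 libraries. Loxl1 reached 34.3 CPM in WT replicate 70A and stayed at or under 1.44 CPM elsewhere.

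**Figure D5:**
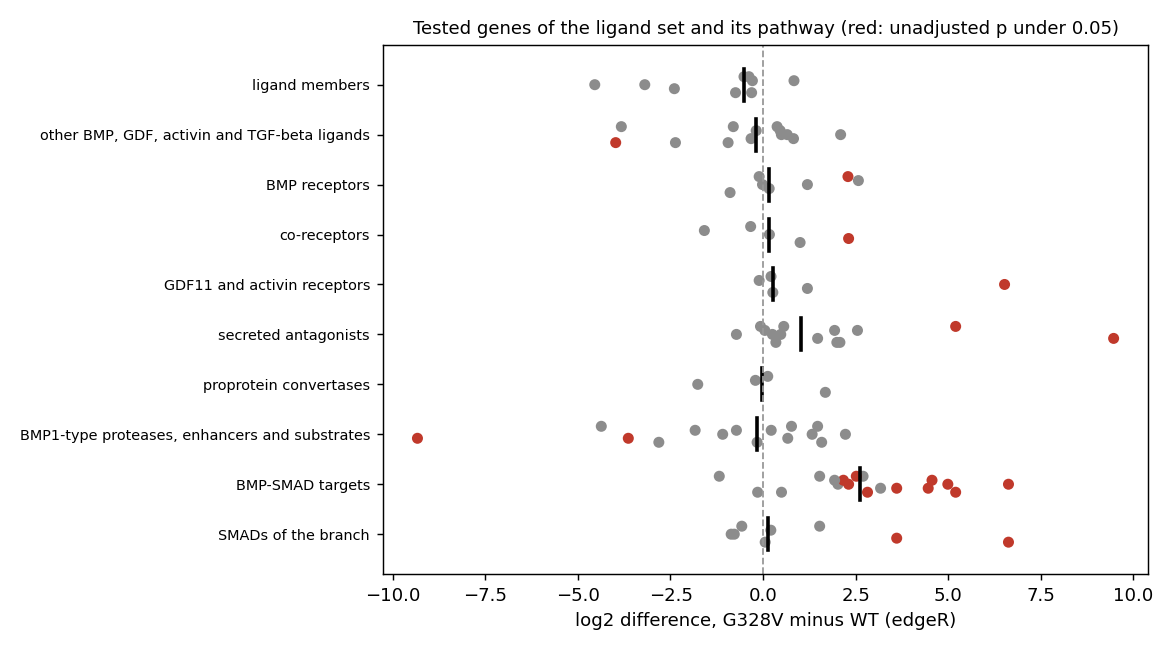
Log2 difference between the groups (G328V minus WT) of each tested gene in the ligand set and 9 lists of its pathway, with a black bar at the list median and red points at an unadjusted edgeR p under 0.05. The ligand median is -0.51 and that of BMP-SMAD targets 2.61, and no point passed the adjustment over all genes.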

How the data were processed

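Total RNA of 6 neurosphere cultures was sequenced after ribosomal RNA depletion with a stranded kit and paired ends, per the labels' protocols. Raw counts, whole numbers listed by gene symbol, come from the HTSeq table that the authors deposited. A second deposited table, from Cufflinks, gives estimated counts (fragments) of 23107 genes. The submitters' processing notes name mm10, FastQC 0.11.3, TopHat2 2.0.13 and Bowtie2 2.2.1. The sources used here do not give what each tool did, the annotation, the counting settings or the use of strand. HTSeq values are close to 2 per fragment, so counts are not independent molecules.

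The main test was the robust quasi-likelihood test of edgeR 4.0.16 in its legacy form (R 4.3.3), with TMM scaling and filterByExpr at a minimum count of 10. It compared the G328V libraries with the WT libraries over 14643 genes, without covariates. All 9 ligand genes passed that filter, although some had 0 counts in at least 1 library. Standard errors were derived from the F statistic. CPM use TMM-scaled library sizes, and RPKM divide them by the union of GENCODE M21 exons. Log2 CPM use a prior count of 2. Alternatives were DESeq2 1.42.0, limma-voom (limma 3.58.1), the newer edgeR fit, other scalings and filters, the Cufflinks table rounded to whole numbers, leaving out each library, and a replicate block. The tests were tested on simulated data. From each pathway list the 3 genes with the smallest edgeR p, and every other ligand of at least 1 CPM in 1 library, were named where they add values, with further ligand paralogs added after their values were seen. The members, lists and rules were chosen with earlier results of these data known.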

Additional observations from a re-analysis of the deposited data

Results flagged for a closer look

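Of the 8 other ligands that the HTSeq table does not list, 5 are listed at 0 in each library of the Cufflinks table and 3 have fragments there. Gdf1, a nodal partner, stood out because its highest value, 46.7 estimated fragments in G328V replicate 3, lay above the WT libraries, at 2.25 to 4.08 fragments. G328V replicates 1 and 2 had 6.51 and 0.643 fragments. Gdf1 shares 1349 exon bases with Cers1 on the same strand, so its fragments cannot be told apart from those of Cers1.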

How the results depend on the processing

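Over 192 refits of single ligand genes, 170 kept the direction without newly passing the threshold, 21 reversed the direction and 1 newly passed. The DESeq2 fits gave Bmp4 no adjusted p, so for these only the direction was compared. DESeq2 called 173 genes over all genes, and without G328V replicates 1, 2 and 3 or WT replicates 1, 3 and 70A it called 283, 405, 329, 727, 272 and 374, where edgeR called 0 in each such fit. DESeq2 called 0 ligand genes without any 1 of the other libraries and 1 without G328V replicate 2, Gdf6, at a log2 difference of -6.83. Leaving out 1 library, edgeR gave -1.35 to 0.18 for Bmp1, -4.70 to 10.95 for Bmp4, -2.12 to 3.10 for Bmp5 and -3.51 to 2.69 for Bmp7. DESeq2 reversed the same 4 genes when 1 library was left out: Bmp1 was 0.18 and Bmp4 10.28 without WT replicate 70A, Bmp4 was 0.23 and 0.25 without G328V replicates 1 and 2, Bmp5 was -2.15 without G328V replicate 1, and Bmp7 was 0.050, 0.17 and 2.74 without G328V replicates 1 and 3 and WT replicate 1. Bmp4 was 2.81 by limma-voom. Bmp2, Bmp6, Gdf6 and Gdf11 kept their direction in every refit. Keeping genes with at least 1 CPM in 3 libraries left Bmp1, Bmp2 and Gdf11, so the other 6 have no value there. Replicate numbers 1 and 3 occur in both groups. The labels do not say that a number marks a shared source, and with 2 pairs the numbers were not taken as pairs, although deviations of same-numbered libraries correlated at 0.18 and 0.23. With the replicate block over those 4 libraries, edgeR called 0 genes, and the differences were -0.22 for Bmp1, -0.42 for Bmp2, 11.46 for Bmp4, 5.09 for Bmp5, -0.71 for Bmp6, -3.53 for Bmp7, -7.15 for Gdf6, 1.45 for Gdf10 and -0.34 for Gdf11. Without the block over the same 4 libraries Bmp2, Bmp4 and Gdf10 were -1.83, 11.60 and 0.045. The WT libraries in these fits hold 0 counts of Bmp4, so its size is not measured. Total-count scaling shifted the median of all genes by 0.12 and turned no ligand gene. The causes of these moves were not tested. Depth limits Bmp4, Bmp5, Bmp7, Gdf6 and Gdf10, which lie at or under 3 counts in at least 1 library. The refits with DESeq2 that leave out a library, and the unblocked fit over 4 libraries, were added after seeing the data.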
